A study of Mus musculus with 9 samples.

Results

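Gene promoters with few CpG dinucleotides were followed through the conversion of mouse embryonic fibroblasts into induced pluripotent stem cells. The promoter window was 500 bp on each side of the most upstream annotated transcription start site (TSS) of a protein-coding gene on chromosomes 1 to 19 (mm9, GENCODE vM1). A promoter was called CpG-poor when the number of CpG dinucleotides in the window was below 0.4 of the number that its C and G content predicts (the CpG observed/expected ratio). This held for 8479 of 21418 promoters, and the other 12939 served as the contrast. Of the 3 CpG-poor promoters nearest the threshold, that of Trpt1 (0.3998) was open in 9 libraries and those of 2 predicted genes were open in none. Just above it lay Cplx3, open in 2 libraries, Olfr1349 (0.4001), open in 1, and Pde6a (0.4003), open in none. The median ratio was 0.183 in CpG-poor windows, with a median of 10.0 CpG dinucleotides, against 0.738 and 64 in the other windows. The median GC content was 46.2% against 59.7%.

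ATAC-Seq, in which the Tn5 transposase cuts and tags DNA that nucleosomes leave accessible, had been performed on 9 libraries, 1 per condition. The cells were fibroblasts of mouse embryos that carry a GFP reporter at Oct4 (Pou5f1). Reprogramming was started with retroviral pMXs vectors for Sox2, Klf4, Oct4 and c-Myc (OSKM). D0 was the unsorted fibroblast population of day 0, which the labels do not place after induction, and whether it had met the virus is not given in the sources used here. D3 was unsorted at day 3. D6T- and D9T- were Thy-1- cells of days 6 and 9, which had lost the fibroblast surface protein Thy-1, and D12S+ and D16S+ were SSEA-1+ cells of days 12 and 16, which carried an early pluripotency antigen. iPSCs were fully reprogrammed, unsorted cells. D6_siH3.3 and D6_siNT were day 6 cells, labelled as Thy-1- sorted, that had received siRNA against the histone variant H3.3 or a non-targeting siRNA. The siRNA arm shares OSKM with the time course, but it differs from D6T- by the transfection and, per the study's methods, by how the cells were plated, and a list of the study gives no sorting for it. With 1 library per condition, differences between conditions have no replicate check and are given as values.

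Most housekeeping genes start within CpG islands, stretches where CpG dinucleotides escaped methylation in the germline and which bind factors that keep nucleosomes away. Promoters outside islands are typical of tissue-restricted genes. They tend to be methylated and covered by nucleosomes where the gene is silent, and they depend more on sequence-specific activators, and in part on a TATA box, for opening. Some fibroblast structural genes and several genes of the pluripotency network have promoters of this kind.

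A promoter was called open in a library when a deposited peak overlapped its window, and its level was the highest summit pileup of such a peak, in extended tags per 1000000 total tags (abbreviated CPM). Total tags ranged from 13213117 (D9T-) to 31714845 (D0), and peaks from 36708 (D9T-) to 133132 (D6T-). The lowest pileup called was 7 to 11 tags, or 0.331 (D3) to 0.530 (D9T-) CPM, so a promoter without a peak may lie just under that level and is not shown to be inaccessible. Over all promoters, 51.1% were open at D0 and 60.5% in iPSCs. Of 10 fibroblast marker promoters, of any CpG ratio, 5 were open at D0, 7 at D3 and 6 at D6T-. At D9T- 1 was open, at D12S+ 5, at D16S+ 4 and in iPSCs 2. Of 10 pluripotent cell marker promoters, which did not include that of Pou5f1, 1 was open at D0 and 9 in iPSCs. Of 8 macrophage marker promoters, which were all CpG-poor, 1 (Cd68) was open at D0, and those of Emr1, Fcgr1, Itgam, Lyz2 and Ptprc had no peak in any library. Of 10 fibroblast markers, Lum, Pdgfra and Postn had none. Of 8 endothelial marker promoters 4 were open at D0 and 4 in iPSCs, with none of Cdh5, Emcn and Tie1 open in any library, and of 8 skeletal muscle marker promoters 2 and 4 were open. The part of such cells in the results was not tested.

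Sequences of 200 bases upstream of the TSS (mm9) show what such promoters look like. The first 5 represent promoters that opened late (Nanog), at an intermediate stage (Il1rn, Cyp3a13), or were open in fibroblasts, and the last pair represents promoters with a peak in every library. Capitals mark matches to motif letters that were searched on both strands (a TATA box, TATAAA, from -45 to -15 on the gene's strand; CCAAT in the 150 bases upstream; AP-1, TGANTCA; octamer, ATGCAAAT; TEAD, GGAATG; RUNX, TGTGGT; KLF, CCNCNCCC; E-box, CACGTG). Overlapping matches run together.
Nanog (chr6:122657307-122657506, plus strand): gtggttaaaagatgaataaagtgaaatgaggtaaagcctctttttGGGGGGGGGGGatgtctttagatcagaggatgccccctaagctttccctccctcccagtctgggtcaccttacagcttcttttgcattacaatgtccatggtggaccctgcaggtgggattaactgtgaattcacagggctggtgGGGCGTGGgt
Il1rn (chr2:24192173-24192372, plus strand): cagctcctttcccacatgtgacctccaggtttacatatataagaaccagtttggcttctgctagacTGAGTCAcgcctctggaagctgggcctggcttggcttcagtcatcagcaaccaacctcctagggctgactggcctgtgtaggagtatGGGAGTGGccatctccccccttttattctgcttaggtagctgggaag
Cyp3a13 (chr5:138362848-138363047, minus strand): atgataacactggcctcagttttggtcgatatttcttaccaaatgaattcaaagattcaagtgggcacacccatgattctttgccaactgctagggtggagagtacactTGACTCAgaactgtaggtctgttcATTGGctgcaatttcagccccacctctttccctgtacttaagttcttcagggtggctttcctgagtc
Acta2 (chr19:34329827-34330026, minus strand): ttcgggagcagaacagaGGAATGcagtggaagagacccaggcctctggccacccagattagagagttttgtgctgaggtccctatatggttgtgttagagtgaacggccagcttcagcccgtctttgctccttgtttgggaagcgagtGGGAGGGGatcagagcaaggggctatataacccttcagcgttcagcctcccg
Lgals3bp (chr11:118263407-118263606, minus strand): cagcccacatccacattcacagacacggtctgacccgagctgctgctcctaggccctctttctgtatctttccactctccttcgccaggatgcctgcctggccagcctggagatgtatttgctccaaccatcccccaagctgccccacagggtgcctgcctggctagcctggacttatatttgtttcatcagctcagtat
Mgmt (chr7:144086094-144086293, plus strand): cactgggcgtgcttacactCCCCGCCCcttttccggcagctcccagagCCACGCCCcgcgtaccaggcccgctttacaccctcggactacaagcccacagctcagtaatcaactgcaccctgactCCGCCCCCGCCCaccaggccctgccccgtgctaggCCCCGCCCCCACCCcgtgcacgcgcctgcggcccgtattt
Trim21 (chr7:109713984-109714183, minus strand): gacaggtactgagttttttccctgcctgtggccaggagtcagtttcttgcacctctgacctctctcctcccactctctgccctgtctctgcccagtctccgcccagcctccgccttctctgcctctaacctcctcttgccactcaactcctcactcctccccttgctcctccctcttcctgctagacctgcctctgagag
The Nanog, Il1rn and Cyp3a13 stretches hold 1 CpG each, that of Lgals3bp 3 and that of Acta2 6. The Mgmt stretch, with 17 CpG and 7 KLF matches, shows that a window under 0.4 can still hold CpG-dense sequence next to the TSS. The Trim21 stretch, with a peak in every library, holds 2 CpG and none of the motif matches.

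CpG-poor promoters were far less often open than other promoters in every library. At D0, 960 CpG-poor promoters were open, which is 11.3% (95% Wilson interval 10.7 to 12.0), against 77.1% (76.4 to 77.8) of the others and 51.1% of all promoters. At D3, 1573 were open, 18.6% (17.7 to 19.4) against 92.9% (92.5 to 93.3), with 63.5% of all promoters. D6T- gave 1509, 17.8% against 92.0%, with 62.6% of all promoters. These were the libraries with the most open CpG-poor promoters, and both also had the most peaks.

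D9T-, the shallowest library, had the fewest, 583 or 6.88% (6.36 to 7.43) against 72.9% of the others and 46.7% of all promoters. At D12S+ 1037 were open (12.2% against 89.2%, and 58.7% of all), and at D16S+ 1010 (11.9% against 90.5%, and 59.4% of all). In iPSCs 1093 were open, 12.9% (12.2 to 13.6) against 91.6% (91.1 to 92.1), with 60.5% of all promoters. The siRNA libraries had 653 (7.70%, D6_siH3.3, where 50.1% of all promoters were open) and 630 (7.43%, D6_siNT, 50.9% of all). The difference in open share between CpG-poor and other promoters averaged -73.0 percentage points (SD 4.90 over 9 libraries, range -78.7 to -65.8). It was negative in 9 of 9 libraries, and the exact two-sided sign-flip permutation test over libraries gave p = 0.00391, the smallest that 9 libraries allow (adjusted p = 0.00391 over 5 measures). These libraries come from successive stages of one experiment, so they are not independent units. The p-value reflects only that the sign was the same in all 9 libraries, and the SD and range describe how the contrast varied.

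**Figure D1:**
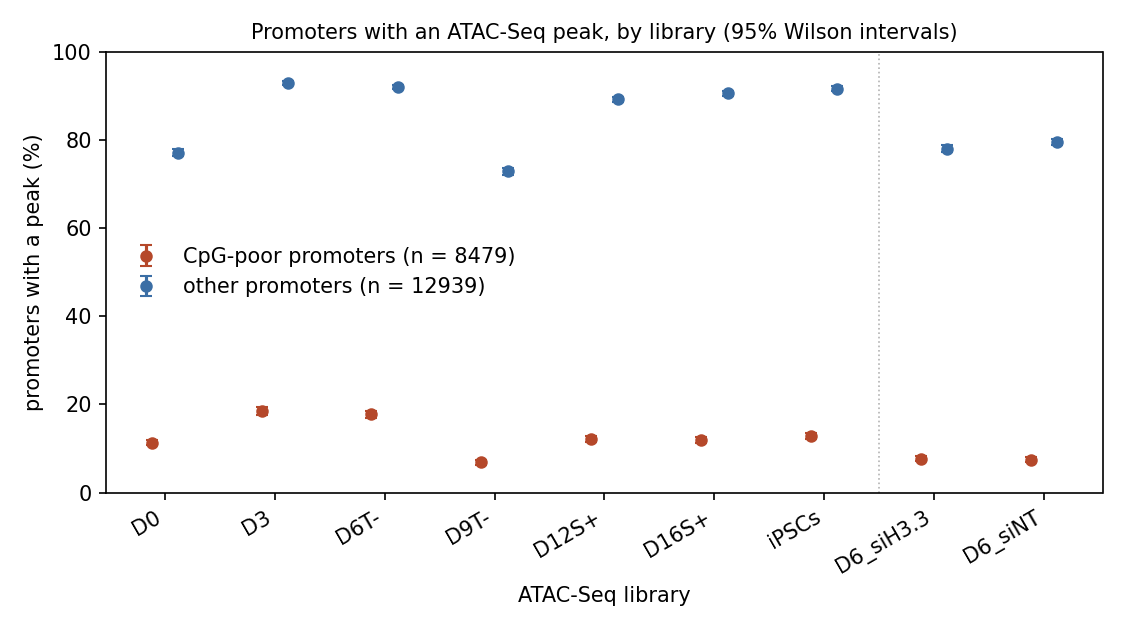
Percentage of promoters with an ATAC-Seq peak within 500 bp of the TSS (y axis) in each library (x axis) for CpG-poor (red) and other (blue) promoters; bars are 95% Wilson intervals, which are often smaller than the points. CpG-poor promoters lie between 6.88% and 18.6%, all below the other promoters, which lie between 72.9% and 92.9%.

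The library with the fewest peaks, D9T-, also had the fewest open CpG-poor promoters. When every library was limited to its 36708 strongest peaks, the number in D9T-, the open share of CpG-poor promoters ran from 5.77% at D0 and 7.95% at D3 to 8.92% at D12S+, 9.32% at D16S+ and 8.63% in iPSCs, with 5.91% (D6_siNT) and 6.09% (D6_siH3.3) in the siRNA libraries. Under that setting the late libraries stood above D3 (7.95%) and D6T- (7.78%), the reverse of the order above, while the gap to the other promoters, at 61.7% to 86.5%, was of similar size. The rank of stages by the share of open CpG-poor promoters thus changed with the number of peaks.

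The share of open promoters rose with CpG content within the CpG-poor group as well. In iPSCs it was 1.74% of 1498 promoters with a ratio below 0.1, 5.80% of 3188 from 0.1 to 0.2, 15.5% of 2206 from 0.2 to 0.3 and 34.0% of 1587 from 0.3 to 0.4. Just above the threshold, 62.2% of 1372 promoters from 0.4 to 0.5 were open. D0 rose less steeply, from 4.54% in the lowest class to 22.4% from 0.3 to 0.4 and 39.7% from 0.4 to 0.5. In the lowest class D0 (4.54%), D3 (6.41%) and D6T- (5.61%) were above iPSCs (1.74%), whereas from 0.3 to 0.4 iPSCs (34.0%) were above D0 (22.4%).

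**Figure D2:**
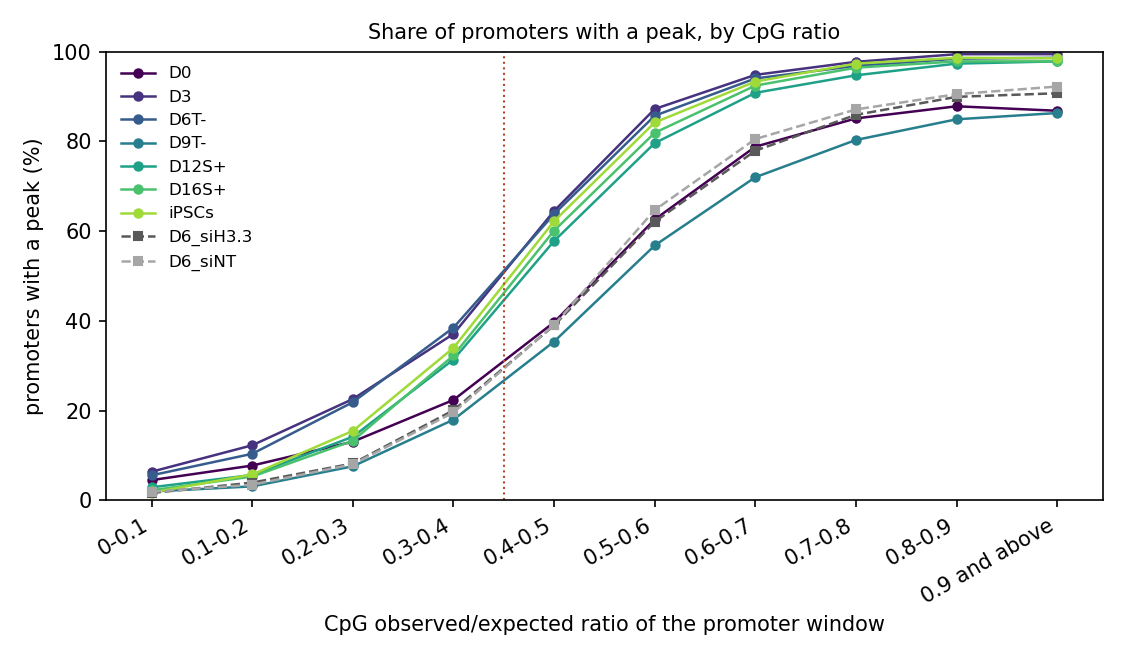
Percentage of promoters with a peak (y axis) by class of CpG observed/expected ratio (x axis) in each library; circles and solid lines are the time course and squares with dashed lines the siRNA libraries, and the dotted line marks the threshold of 0.4. The lines of all 9 libraries climb from below 7% in the lowest class, and in iPSCs the share passes from 34.0% to 62.2% across the threshold.

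The open share of CpG-poor promoters also rose with GC content, to different extents in different libraries. Among those in the highest quartile of GC content (51.2% to 67.8%), 60.8% were open in at least 1 library, against 5.18% in the lowest quartile (20.4% to 41.0%). The median CpG ratio rose as well, from 0.131 in the lowest quartile to 0.241 in the highest, and GC content was not separated from it. The open share in the highest quartile over that in the lowest was 7.43 in D6T-, 8.29 in D6_siNT, 10.2 in D6_siH3.3 and 10.5 in D9T-. It was 16.5 at D0, 22 at D3, 20.4 at D12S+, 34.8 at D16S+ and 73.1 in iPSCs. GC dependence of the library preparation was not tested, and it cannot be told apart from the condition with 1 library each.

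Where a CpG-poor promoter was open, its peak was lower and narrower, and less often lay over the TSS. The median level of open CpG-poor promoters was 0.568 CPM at D0 against 0.851 for other open promoters, 1.22 against 2.99 in D6T-, and 0.640 against 1.02 in iPSCs. The log2 ratio of the medians averaged -0.87 (SD 0.36, range -1.43 at D3 to -0.36 in D9T-, lower in 9 of 9 libraries, exact sign-flip permutation test, adjusted p = 0.00391). The median peak width was 351 to 517 bp against 531 to 1123 bp, a mean log2 ratio of -0.80 (SD 0.23, 9 of 9 libraries, exact permutation test, adjusted p = 0.00391). These ratios apply to called peaks alone.

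The peak covered the TSS at 54.5% (D0) to 69.0% (D16S+) of open CpG-poor promoters, against 85.5% to 94.2% of the others. The mean difference was -26.5 percentage points (SD 3.29, 9 of 9 libraries, exact permutation test, adjusted p = 0.00391). The strongest summit lay a median of 116 to 166 bp from the TSS, against 88.0 to 106 bp, a mean difference of 43.2 bp (SD 17.1, adjusted p = 0.00391 by the exact permutation test). Among promoters whose peak covered the TSS this difference was reversed, at -11.0 bp. Of the strongest summits at open CpG-poor promoters, 79.0% to 86.4% lay inside the window. The remainder belonged to peaks that reached over its edge, and for those the level was measured outside the 500 bp.

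Over a wider range, 6.17% of CpG-poor promoters lay under a peak exactly at the TSS at D0 and 1.86% at 3000 bp from it, a ratio of 3.32. The ratio was 3.83 at D3, 5.39 at D16S+ and 4.30 in iPSCs, against 18.1 (D6T-) to 66.0 (D9T-) for the other promoters. Cover was uneven on the flanks. At 1000 bp downstream 5.22% of CpG-poor promoters were under a peak at D3, against 2.75% at 1000 bp upstream, and in iPSCs these shares were 3.42% and 1.77%. Downstream cover exceeded upstream cover in all 9 libraries, and also at the other promoters (26.1% against 13.6% in D6T-).

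**Figure D3:**
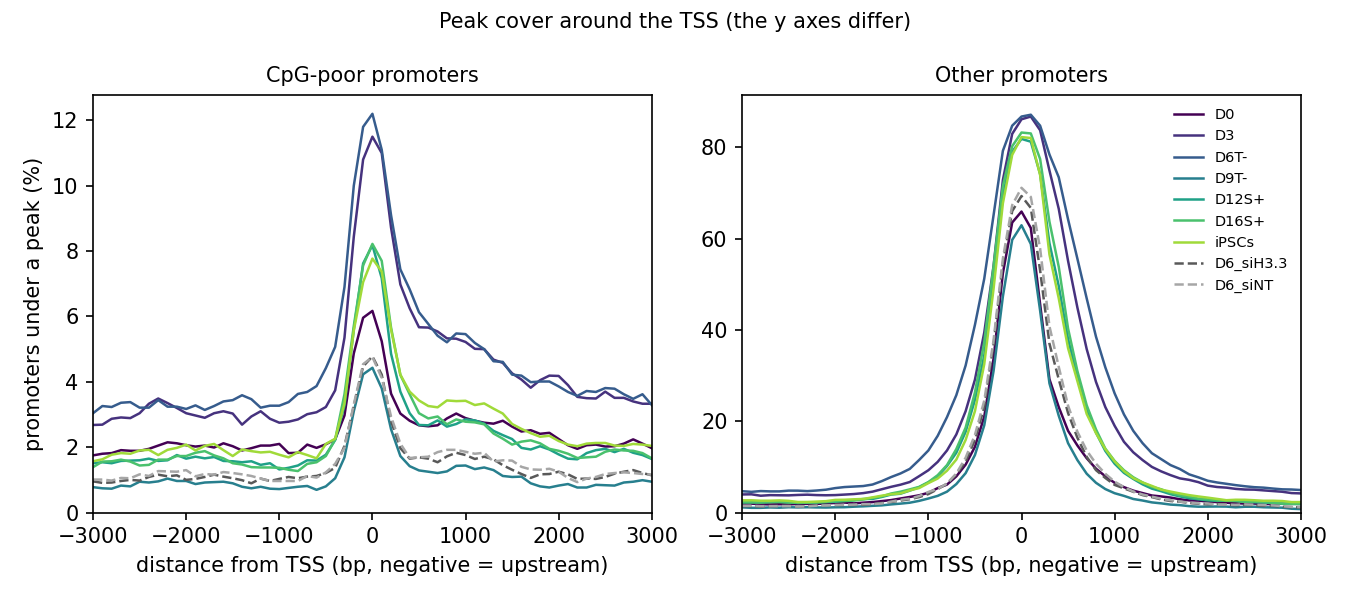
Percentage of promoters under a peak (y axis, scales differ between panels) by distance from the TSS in bp (x axis, negative is upstream), one line per library. At CpG-poor promoters the highest cover is 4.43% to 12.2% at the TSS with a shoulder downstream; at other promoters it is 62.9% to 87.1%.

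Few CpG-poor promoters were open throughout. At least 1 library had a peak at 2429 (28.6%, with 69.4% of all promoters), and 6050 (71.4%, with 30.6% of all) had none in any library. Exactly 1 library had a peak at 731 (8.62%, with 1.55% of the others). Of these, 236 were open at D3, 152 at D6T-, 142 at D0 and 134 in iPSCs, against 3 in D9T-. Their peaks were low, with medians of 0.430, 0.608, 0.441 and 0.489 CPM at D3, D6T-, D0 and in iPSCs. The lowest callable levels there were 0.331, 0.374, 0.347 and 0.376. Peaks in every library were found at 242 (2.85%), while 40.8% of all promoters and 65.7% of the others had them. Among the 2429, the median CpG ratio was 0.251 and the median GC content 51.7%, against 0.163 and 44.0% in the 6050.

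Between D0 and iPSCs, 627 CpG-poor promoters were gained and 494 were lost. With a CpG threshold of 0.3 the balance was reversed, with 354 gained and 406 lost. Gains made up 7.39% of CpG-poor promoters and 15.7% of the others (12.4% of all), and losses 5.83% and 1.16% (3.01% of all). CpG-poor promoters were thus 494 of 644 lost promoters (76.7%) and 627 of 2655 gained promoters (23.6%). From D0 to D3, 819 CpG-poor promoters opened and 206 closed, against 2073 and 28 of the others. From D6T- to D9T-, where the number of peaks fell most, 13 opened and 939 closed, against 3 and 2475 of the others. From D9T- to D12S+ 520 opened and 66 closed, against 2147 and 38 of the others. The closing at D9T- and the opening after it were thus also seen at the other promoters.

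A fibroblast pattern, open at D0 and without a peak at D12S+, D16S+ and in iPSCs, held 346 CpG-poor promoters and 26 others. CpG-poor promoters were thus 93.0% of this pattern, although they made up 8.78% of the promoters open at D0 and the pattern covered 1.74% of all promoters. The peaks were low, with a median of 0.473 CPM (15.0 tags) at D0, and 202 of the 346 (58.4%) exceeded 0.454 CPM, the highest of the lowest callable levels of the 3 late libraries. With 1 pileup floor of 0.530 CPM in all libraries the pattern held 140 CpG-poor and 28 other promoters (83.3%), and with equal peak numbers 133 and 34 (79.6%). Of the 346, 169 were also open at D3 and 151 at D6T-, but 16 at D9T-, 32 in D6_siH3.3 and 24 in D6_siNT.

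The fibroblast-pattern promoters with the highest D0 levels included those of a contractile, a receptor and a lipid droplet gene. Acta2, smooth muscle actin, which marks myofibroblasts, had 1.10, 0.827, 2.06 and 0.984 CPM in D0, D3, D6T- and D9T-, and no peak later in the time course. In the siRNA libraries it stood at 1.12 (D6_siH3.3) and 0.689 (D6_siNT). Il1r1, the signalling receptor for interleukin-1, stood at 1.17, 1.22 and 2.24 at D0, D3 and D6T- and had no peak from D9T- on, with 0.482 and 0.505 in D6_siH3.3 and D6_siNT. Both were highest in D6T-, the library that also had the highest median at promoters open in every library.

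Plin4, a protein that coats lipid droplets, had a similar course, with 1.14 at D0, 1.22 at D3 and 1.73 at D6T-. Lgals3bp, a secreted galectin-binding glycoprotein, had 1.07, 1.39 and 1.78, then no peak in the time course, and 0.536 in D6_siH3.3 without one in D6_siNT. Cckar, a receptor for cholecystokinin, had 1.07 at D0, none at D3 and 0.514 at D6T-. The remaining promoters named by level were those of Gm16508 (1.23 at D0), Gapvd1 (1.2) and Gm4861 (1.14), with the summits of the last pair at -654 and -557 bp, outside the window.

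Of 47 promoters of the fibroblast and matrix list, 23 were CpG-poor. Of these 23, 17 (73.9%) were open in at least 1 library, against 28.6% of all CpG-poor promoters. Open ones numbered 14 at D0, 15 at D6T-, 6 at D9T-, 9 at D16S+ and 7 in iPSCs, so the list was not closed as a whole at the end. In these libraries 11.3%, 17.8%, 6.88%, 11.9% and 12.9% of all CpG-poor promoters were open. Of the 17 on the list, 4 had a peak in every library, among them Sparc, a collagen-binding matricellular protein, Thbs2, a thrombospondin, and Col5a2, a fibrillar collagen chain. Sparc had 0.914, 2.02, 2.90, 0.908, 1.19, 1.04 and 0.752 CPM along the time course from D0 to iPSCs, highest in D6T-. Thbs2 went from 0.694 at D0 through 3.88 at D6T- to 0.602 in iPSCs.

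Other matrix genes had no peak in iPSCs. Cd44, the hyaluronan receptor, stood at 0.883 at D0, 4.35 at D6T- and 0.708 at D16S+, and Dcn, the proteoglycan decorin, at 0.473, 1.45 and 0.803. Col1a1 and Col1a2, the chains of type I collagen, were last seen at D12S+ (1.19) and D16S+ (0.850), with summits 776 and 559 bp downstream of the TSS. Col3a1 was open at D3 (0.529), at D6T- (1.26) and in both siRNA libraries (0.750 and 0.505), and had no peak at D0. The promoters of the matrix metalloproteinases Mmp13 (0.631) and Mmp10 (0.568) were among those open at D0, together with Col6a3 (0.441).

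The contractile list held 10 CpG-poor promoters, 7 of them open at D0 and 4 in iPSCs, where 11.3% and 12.9% of all CpG-poor promoters were open. Cald1, the actin-binding caldesmon, was open in every library, at 1.58 at D0, 3.51 at D6T- and 0.790 in iPSCs. Tagln, an actin-binding protein of smooth muscle, was open at D0 (0.851), D3 (1.09) and D6T- (0.841) alone. Myh11, smooth muscle myosin, was lowest at D0 (0.441) and stood at 0.903 in iPSCs. Of the remaining members of the list, Myl9 and Lmod1 had peaks in iPSCs (0.527 and 0.640) and Cnn1 was last seen at D12S+ (0.681). The list did not move as a unit. Of 3 CpG-poor promoters of the epithelial list 2 had a peak, Cldn4, a tight junction protein (0.378 at D0 and 1.51 at D16S+), and Krt7, a simple epithelial keratin (D0 alone, 0.347), and of 2 of the germline list 1 had a peak, Oosp1 (D0 alone, 0.536).

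Among gene families, kallikreins and keratin-associated proteins had open promoters mainly in the early libraries. Of 26 CpG-poor kallikrein promoters, 9 were open at D0 (11.3% of all CpG-poor promoters were) and 8 of these had the fibroblast pattern (4.08% of all CpG-poor promoters), at 0.347 to 0.441 CPM and thus close to the lowest callable level (0.347). Of 45 promoters of keratin-associated proteins, the matrix proteins of hair, 13 were open at D3 (18.6% of all CpG-poor promoters were). At D0 4 were open (11.3% of all CpG-poor promoters were), and none in iPSCs. The D3 levels ran from 0.331 CPM, the lowest callable level there, to 1.06, and most were below 0.530. The highest promoters of this family were Krtap1-5, at 0.977, 0.728 and 3.32 at D0, D3 and D6T-, and Krtap2-4, at 1.04, 1.06 and 2.38. Sprr1a, a cornified envelope protein, was open from D0 (0.946) through D6T- (3.79) and D9T- (2.72) to D12S+ (1.08). These families lie in gene clusters, so neighbouring promoters are not independent. Of 8 keratinocyte marker promoters none was open at D0, 3 at D3, 2 each at D6T- and D9T- and 3 in iPSCs, and Dsg3, Ivl, Krt10, Krt5 and Trp63 had no peak in any library.

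A transient pattern was defined by a peak at D3, D6T- and in both siRNA libraries and none at D0, D16S+ or in iPSCs. It held 25 CpG-poor promoters and 3 others, which is 89.3% CpG-poor in a pattern of 0.131% of all promoters. With equal peak numbers it held 22 CpG-poor promoters, 8 of them shared with the 25, and 12 others (64.7%), and where the peak had to cover the TSS 21 and 14. The median level was 0.662 at D3, 1.64 at D6T- and 1.21 at the 18 promoters open at D9T-. Of the 25, 15 had a peak at D12S+ (median 0.681).

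Cyp3a13, a drug-metabolising cytochrome P450, had the highest D6T- level after that of a predicted gene (3.60), with no peak at D0 and 1.39, 3.46, 2.42 and 0.681 CPM from D3 to D12S+. It stood at 1.98 in D6_siH3.3 and 1.47 in D6_siNT. Il1rn, the antagonist of the interleukin-1 receptor, had 0.595, 2.29 and 0.908 CPM in D3, D6T- and D9T-, with 0.911 and 0.918 in the siRNA libraries. Nfe2, a haematopoietic transcription factor, stood at 0.794 and 2.66 at D3 and D6T-, and Tmprss11bnl, a gene of the transmembrane serine protease family, at 0.529 and 2.62. Rnf183, a ubiquitin ligase, had 1.12 and 3.41, with a summit 578 bp downstream of the TSS at D6T-.

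Of these 25 windows, 18 (72.0%) held the AP-1 letters, against 27.7% of all CpG-poor windows, 13.3% of the others and 19% of all promoters. The printed stretches of Cyp3a13 and Il1rn each contain a match, at -91 and -134. Among fibroblast-pattern windows the share was 32.9%, and among late-pattern windows 17.3%. By library, 30.1% of open CpG-poor windows held a match at D0, 32.5% at D6T- and 32.9% at D9T-, compared with 24.7% at D12S+, 21.4% at D16S+ and 22.2% in iPSCs. D6_siH3.3 and D6_siNT had 32.9% and 33.7%. These shares describe the letters present and do not show that a factor was bound.

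Several chemokine and cytokine promoters had no peak from D16S+ on. Of 90 CpG-poor interleukin, chemokine and receptor promoters, 24 (26.7%) were open in at least 1 library, near the 28.6% of all CpG-poor promoters. Open ones numbered 9 at D0, 19 at D3, 14 at D6T-, 5 at D16S+ and 10 in iPSCs, so the list as a whole did not fall from D0 to iPSCs. In these libraries 11.3%, 18.6%, 17.8%, 11.9% and 12.9% of all CpG-poor promoters were open. Ccl2, a chemokine that attracts monocytes, had 0.946, 2.12, 4.63, 1.82 and 1.19 CPM from D0 to D12S+, and no peak afterwards. Its neighbour Ccl7 followed at 1.04, 1.46, 3.51, 1.74 and 0.738. Il6, the interleukin-6 gene, stood at 1.01, 1.39, 2.43, 0.833 and 0.965 in the same libraries. All 3 were open in both siRNA libraries, Il6 at 0.911 (D6_siH3.3) and 0.964 (D6_siNT). In contrast, Il15ra was open in every library and Cxcl5 was missing a peak in D6_siH3.3 alone.

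A late pattern, with peaks at D16S+ and in iPSCs and none at D0 or D3, held 156 CpG-poor and 165 other promoters. CpG-poor promoters made up 48.6% of a pattern of 1.5% of all promoters. Of the 156, 103 (66.0%) were already open at D12S+, 12 at D9T- and 51 at D6T-, and the median level was 0.803 at D16S+ and 0.677 in iPSCs. With equal peak numbers the pattern held 218 CpG-poor and 766 other promoters (22.2%), and with 1 pileup floor 175 and 408 (30.0%).

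Pluripotency genes with CpG-poor promoters numbered 14, of which 10 (71.4%) were open in at least 1 library, against 28.6% of all CpG-poor promoters. Nanog, a core factor of the pluripotent state, had no peak before D12S+ and stood at 0.852 at D12S+, 1.32 at D16S+ and 0.602 in iPSCs. Gdf3, a TGF-beta family ligand of pluripotent cells, stood at 0.965, 0.897 and 0.752 in the same libraries. Dppa2 and Dppa4, neighbouring genes for DNA-binding proteins of early embryos, opened at D16S+ (0.661 and 0.567) with 0.640 and 0.602 in iPSCs. Fbxo15 had summits 558 to 674 bp upstream of the TSS from D6T- on, with 1.59 at D6T- and 2.60 at D16S+, and had no peak at D0 or D3.

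Other members of the list did not follow. Lefty1, an inhibitor of Nodal signalling, was open at D12S+ alone (0.568), Lefty2 (0.463) and Dnmt3l (0.430) at D3 alone, and Spp1 at D6T- alone (0.795). The promoters of Esrrb, Zscan4c, Zscan4d and Zscan4f had no peak in any library.

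Pou5f1, which encodes Oct4, had the highest levels of any CpG-poor promoter open in every library, with 13.1, 24.7, 19.4, 12.2, 21.2, 17.2 and 14.4 CPM from D0 to iPSCs. Most of these levels were measured outside the promoter. A peak of 9402 to 9649 bp ran over the gene in 8 libraries (17521 bp in iPSCs), from 35642614 to 35652061 on chromosome 17 at D0, and its strongest summit lay 7146 bp downstream of the TSS there. Inside the window the levels were 5.04 at D0, 24.7 at D3, 6.03 at D6T-, 10.9 at D16S+ and 6.81 in iPSCs. All cells carry a reporter at this gene, and after infection a retroviral copy of its coding sequence. The share of either in the tags was not tested, and the peak had a similar extent at D0.

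Of the 8 late-pattern promoters with the highest iPSCs levels, 6 belonged to zinc finger genes. Grouping by zinc fingers was chosen after these values were seen. Genes whose protein sequence held at least 3 C2H2 fingers, the DNA-binding module of the largest family of mouse transcription regulators, accounted for 12 of the 156 late promoters. They also accounted for 41 of the 242 promoters open in every library and 2 of the 346 fibroblast-pattern promoters. Among CpG-poor promoters they were 101 of the 2429 open in at least 1 library and 192 of all 8479, and over all promoters 558 of 21418. In the late pattern 7 of the 12 lay on chromosome 2, as did 23 of all 156 late promoters (14.7%) and 804 of the 8479 (9.48%), and the levels of all 12 in iPSCs were 0.903 to 3.57.

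Gm14139, Gm14124 and Zfp345 lie on chromosome 2 with their TSSs at 150007491, 150083253 and 150310827, in an interval in which all 11 protein-coding promoters were CpG-poor and 9 belonged to C2H2 genes. Gm14139 had no peak before D12S+ and stood at 2.61 at D12S+, 2.74 at D16S+ and 3.42 in iPSCs. Gm14124 stood at 1.65, 2.93 and 3.57, and Zfp345 at 1.42, 3.87 and 2.63. None of them had a peak in either siRNA library. Interspersed with them, Zfp120, Zfp937 and Zfp442 were open in every library, from 1.39, 1.61 and 0.946 at D0 to 7.15, 7.81 and 6.40 at D6T- and 2.63, 1.96 and 2.29 in iPSCs. The remaining 3 C2H2 promoters of the interval, Gm10770, Gm10749 and Gm10130, had no peak in any library.

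The 3 late windows were near copies of one another, with 96.4% to 96.8% identity in pairwise global alignment. They shared 62.9% to 64.9% with the 3 windows that were open in every library, which shared 65.7% to 86.5% among themselves. The upstream sequences of the late genes and of Zfp937, for comparison, were the following, with capitals as before.
Zfp345 (chr2:150310828-150311027, minus strand): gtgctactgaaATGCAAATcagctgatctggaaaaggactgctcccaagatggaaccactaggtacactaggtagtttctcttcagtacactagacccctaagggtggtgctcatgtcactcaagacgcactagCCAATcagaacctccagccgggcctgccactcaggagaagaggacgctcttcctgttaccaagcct
Gm14139 (chr2:150007291-150007490, plus strand): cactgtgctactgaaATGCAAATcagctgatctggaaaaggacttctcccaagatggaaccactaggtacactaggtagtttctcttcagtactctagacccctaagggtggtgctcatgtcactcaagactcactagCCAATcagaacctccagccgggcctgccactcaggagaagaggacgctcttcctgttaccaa
Gm14124 (chr2:150083053-150083252, plus strand): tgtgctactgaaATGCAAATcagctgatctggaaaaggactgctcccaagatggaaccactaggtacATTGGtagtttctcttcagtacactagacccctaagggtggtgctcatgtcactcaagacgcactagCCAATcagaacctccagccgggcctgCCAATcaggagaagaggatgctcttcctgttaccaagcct
Zfp937 (chr2:150043609-150043808, plus strand): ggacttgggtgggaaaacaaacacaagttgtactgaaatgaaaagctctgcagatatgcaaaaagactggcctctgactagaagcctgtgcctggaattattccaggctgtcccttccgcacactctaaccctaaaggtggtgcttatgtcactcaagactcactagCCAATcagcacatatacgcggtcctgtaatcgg
Each late window holds the octamer letters ATGCAAAT at -189 (Zfp345), -185 (Gm14139) or -188 (Gm14124), and a CCAAT match at -66 (Zfp345, Gm14124) or -62 (Gm14139). Zfp937 has a CCAAT match at -33 and no octamer, but Zfp120, also open in every library, has an octamer at -161, so the letters did not separate the groups. Over all CpG-poor windows 5.46% held an octamer, against 3.07% of the others and 4.02% of all promoters, with 7.69% in the late pattern and 7.02% among those open in every library. The authors kept reads with a single mapping position, and how many reads the near copies lost was not tested.

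Also on chromosome 2, Gm14444, Gm14393 and Gm14443 stood at 1.82, 2.95 and 2.61 at D12S+ and at 1.17, 1.81 and 2.11 in iPSCs, and Gm14393 also had a peak in D6T- (0.467). Elsewhere, Zscan10, a zinc finger factor of embryonic stem cells, stood at 1.76, 1.51 and 0.903 from D12S+ to iPSCs. Among the late promoters that are no zinc finger genes, Mup6, of the major urinary protein family, opened at D9T- (0.757) and stood at 2.67, 3.07 and 2.37 from D12S+ on, and Defb1, a beta-defensin, stood at 1.08, 0.945 and 1.5. Slc27a1, a fatty acid transporter, reached 4.53 at D16S+ with a summit 1631 bp downstream of the TSS, outside the window.

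**Figure D4:**
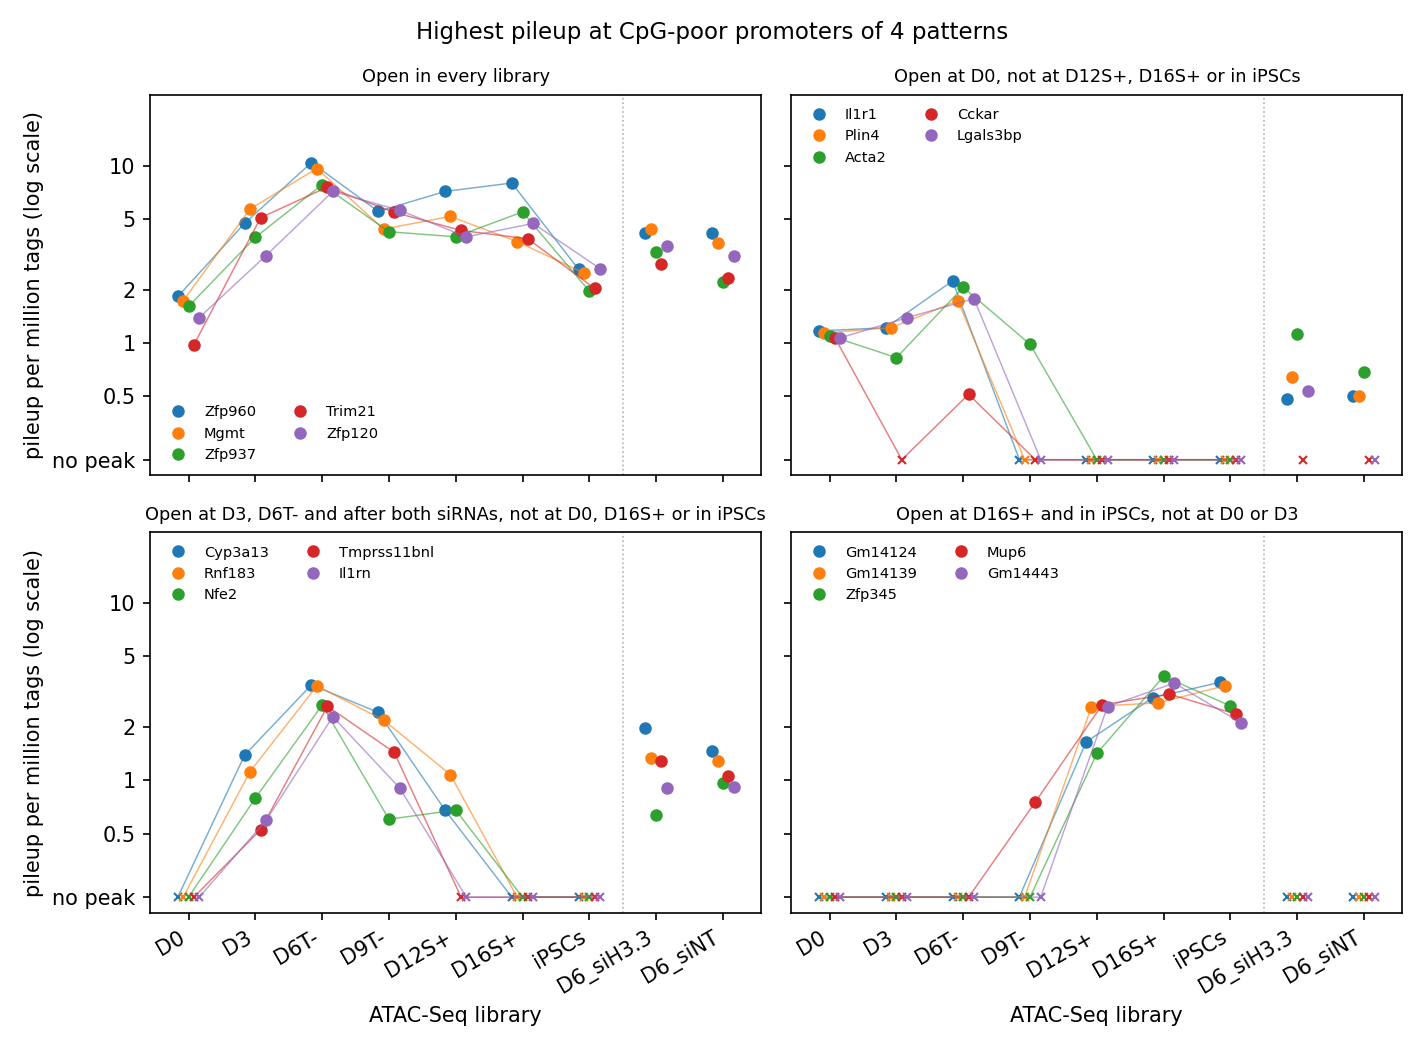
Highest pileup in CPM (y axis, log scale) by library (x axis) for 5 CpG-poor promoters of each of 4 patterns; filled points are peaks, crosses on the lowest line mark libraries without a peak, and lines join the time course. Promoters open in every library have their highest value at D6T-, the transient ones rise from no peak at D0 to 2.29 to 3.46 at D6T-, and the late ones have peaks from D12S+ (Mup6 from D9T-).

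Promoters open in every library had a median of 0.820, 1.85, 3.51, 1.36, 1.87, 1.63 and 0.903 CPM from D0 to iPSCs. The high levels of D6T- were thus also seen at promoters with a peak throughout. The highest after Pou5f1 were Zfp960 (1.83 at D0, 10.4 at D6T- and 2.60 in iPSCs), BC049715 (1.89, 10.6 and 2.11), Mgmt (1.73, 9.63 and 2.48), which encodes a DNA repair methyltransferase, Gm5444 (1.83, 7.85 and 2.18), Zfp937 and Trim21 (0.977, 7.57 and 2.03), a cytosolic antibody receptor. Zfp120, AI987944 and Gmfg, a regulator of actin, completed the 10. BC049715 and Gmfg had their summits outside the window. Of the 242, 204 (84.3%) held the KLF letters, against 56.5% of all CpG-poor windows, 92.2% of the others and 78.1% of all promoters. The KLF share was also 82.7% in the late pattern and 76.9% in the fibroblast pattern. It was 78.5% of CpG-poor windows open in at least 1 library and 47.7% of those never open, so it was not particular to the 242. CCAAT was held by 37.6% of the 242, against 23.6% of all CpG-poor windows, 27.1% of the others and 25.7% of all promoters.

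Promoters of chemosensory receptor families were mostly without a peak. Olfactory, vomeronasal and bitter taste receptors made up 1458 of the 8479 (17.2%), and 38 of them (2.61%) were open in at least 1 library, against 34.1% of the other 7021. The exception with a peak in every library was Olfr9, at 0.757 at D0, 2.43 at D6T- and 1.02 in iPSCs. Of 35 bitter taste receptor promoters none was open. Of 75 cytochrome P450 promoters 14 (18.7%) were open in at least 1 library, below the 28.6% of all CpG-poor promoters, and 5 were open in every library, among them Cyp4f13 (0.914 at D0, 4.02 at D6T- and 1.28 in iPSCs) and Cyp2j6 (1.01, 4.63 and 0.752). The part of multiply mapping reads in the closed families was not tested.

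TATA letters were found in 5.00% of CpG-poor windows, 0.974% of the others and 2.57% of all promoters. They were found in 7.23% of fibroblast-pattern windows, 3.85% of late-pattern windows and 2.07% of windows open in every library. Of CpG-poor windows open in at least 1 library 3.87% held them, fewer than the 5.45% of those closed in every library. By library the share among open CpG-poor promoters was 3.96% at D0, 3.69% at D3 and 3.84% at D6T-, and 1.93% at D12S+, 2.48% at D16S+ and 2.20% in iPSCs. TEAD letters were found in 45.4% and RUNX letters in 54.1% of CpG-poor windows, against 38.2% and 42.0% of all promoters, and E-box letters in 10.4% against 17.1%.

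Cells given siRNA against H3.3 were compared with those given the non-targeting siRNA at CpG-poor promoters. H3.3 is a histone variant that is placed into chromatin outside DNA replication, among other places at active promoters. The paper describes this knockdown as transient and confined to early reprogramming, for which it cites western blots of H3.3 at day 0 and day 6. ATAC-Seq does not measure the targeted RNA, so the depletion itself was not checked here. Whether H3.3 was still reduced in the cells collected for these libraries was not checked here either. Peaks in both libraries were found at 499 CpG-poor promoters, 5.89% of them, against 47.6% over all promoters. Peaks in D6_siH3.3 alone were found at 154 (1.82%, against 2.53% over all promoters) and in D6_siNT alone at 131 (1.54%, against 3.31%). Of the 499, 494 were also open at D6T-, as were 145 of the 154 and 120 of the 131. Promoters open in 1 siRNA library alone had low peaks, with a median of 11 tags in D6_siH3.3 and 13 tags in D6_siNT, against 18 tags in D6_siH3.3 for those open in both.

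At the 499, the median log2 ratio of D6_siH3.3 to D6_siNT was 0.11 (95% order-statistic interval of the median 0.08 to 0.15), with 315 higher in D6_siH3.3 and 184 lower. At the 9700 other promoters open in both it was 0.05 (0.04 to 0.06). Both intervals cover promoters of 1 library pair alone and do not measure a difference between the siRNAs. Relative to the median of all promoters open in both, the CpG-poor median was 0.05. A ratio of at least 2 in either direction was seen at 14 CpG-poor promoters (2.81%) and 89 others (0.918%), and with 1 library per siRNA the spread between cultures is unknown.

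The largest ratio towards D6_siH3.3 was at Gmfg, with 2.20 against 0.459 CPM, a log2 ratio of 2.26. There, the D6_siH3.3 peak had its summit at -857 bp and the D6_siNT peak at -293 bp from the TSS, and inside the window the levels were 0.750 and 0.459. S100a4, a calcium-binding protein of motile fibroblasts, followed with 2.30 against 0.551 (log2 ratio 2.06), again with summits at different places (794 and -8 bp). In the other direction stood Uros, an enzyme of haem synthesis, at 0.429 against 1.33 (-1.64), from different peaks with summits at -595 and 905 bp, and Sdpr, a caveola protein also known as cavin-2, at 0.482 against 1.24 (-1.36).

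Of promoters open in D6_siH3.3 alone, Metrnl, a secreted factor, stood at 1.82, with its summit 872 bp downstream of the TSS. Of those open in D6_siNT alone, the highest were Nphp4 (2.89), Lpin2 (1.70), Capza2 (1.65) and Actn3 (1.51). Their summits lay at 914, 904, 686 and -775 bp from the TSS. In these 5 cases the strongest summit was outside the window, while a predicted gene open in D6_siH3.3 alone (1.07) had it inside, at 119 bp.

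**Figure D5:**
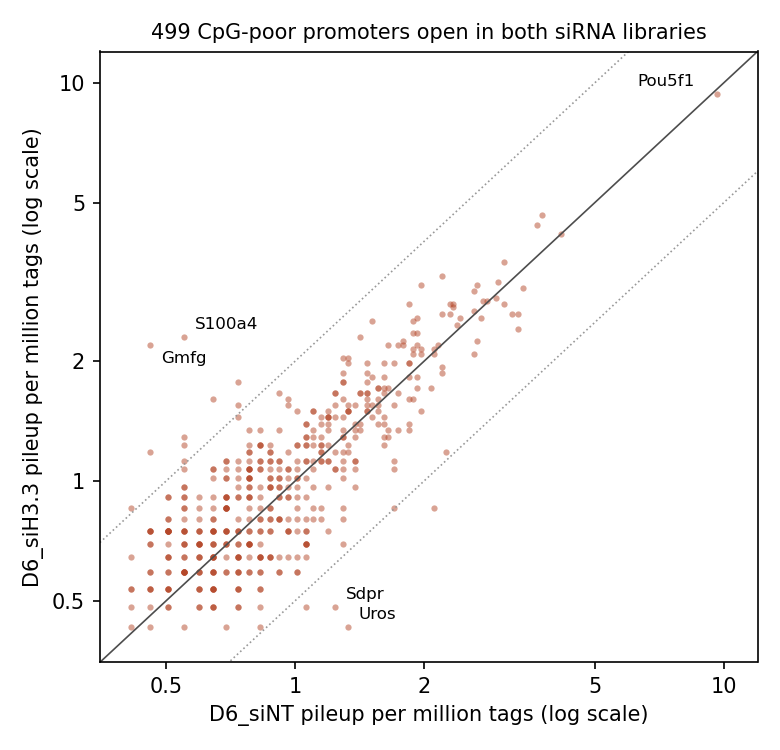
Highest pileup in CPM in D6_siH3.3 (y axis, log scale) against D6_siNT (x axis, log scale) at the 499 CpG-poor promoters open in both, 1 point per promoter; the solid line is equality and the dotted lines are ratios of 2 in either direction. Most points lie between the dotted lines, with 14 outside or on them, among them Gmfg and S100a4 above and Uros and Sdpr below.

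Windows of different genes can overlap. Of the 8479, 50 overlapped the window of a promoter that was not CpG-poor, and 86.0% of these were open in at least 1 library, against 28.3% of the 8429 without such a neighbour. At D0 the open shares were 58% and 11%. Of the 242 promoters open in every library, 11 had such a neighbour.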

How the data were processed

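Peak files of 9 ATAC-Seq libraries were analysed, 7 of the time course and 2 of siRNA-treated cells. According to the study's methods the authors mapped the reads with STAR to mm9, kept reads with 1 mapping position, removed duplicates with Picard and called peaks with MACS2 2.1.0.20151222. Per the file headers this was done without a control, at a q-value of 0.05, with 200 bp tags and no local lambda. The deposited pileup is a signal in whole tags at the summit, unscaled for depth. The deposited fold enrichment is a ratio to a uniform background, and significance was deposited as −log10 p-value and −log10 q-value.

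Pileups were divided by the total tags in each file header, times 1000000. Genes and TSSs came from GENCODE vM1 and sequence from the mm9 genome. Windows extended 500 bp to each side, and the highest summit of any overlapping peak gave the level. Members, lists, patterns and tests were chosen with earlier results of these data known. Named genes were the highest in each pattern (10 open in every library, 8 fibroblast, 8 late, 6 transient), the highest open in 1 siRNA library alone (4 each), the 3 largest ratios in each direction, every open CpG-poor gene of the function lists, and the promoters next to the threshold. Predicted genes were named in the first 3 patterns alone. Genes of families and of the zinc finger group were named after their values were seen. Some genes that this rule selects are not reported here.

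The 5 contrasts between CpG-poor and other promoters were tested with an exact two-sided sign-flip permutation test over 9 libraries and adjusted by the Benjamini-Hochberg method. Intervals of shares are 95% Wilson intervals and cover the sampling of promoters alone. The same limit holds for the order-statistic intervals of median ratios. Alternatives changed the threshold, window, peak set, TSS, gene set and level. Zinc fingers were counted in translated transcripts, and windows were aligned with Biopython 1.88. Code was tested on simulated data and gave the known answer in 12 of 12 checks. Python 3.11.15, numpy 2.4.6, scipy 1.17.1 and matplotlib 3.10.9 were used.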

Additional observations from a re-analysis of the deposited data

How the results depend on the processing

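The 5 contrasts between CpG-poor and other promoters had 101 alternatives, of which 100 gave the same direction and the same side of the threshold, with a largest adjusted p of 0.00781 by the exact permutation test. The exception was the distance of the summit, which was reversed to -11.0 bp where the peak had to cover the TSS. Of 84 alternatives to counts, 56 stayed within 1.5 times. With a threshold of 0.3, 354 CpG-poor promoters were gained and 406 lost, 74 were open in every library, 94 in D6_siH3.3 alone, 79 in D6_siNT alone and 240 in both. With 0.5 these were 986 gained, 591 in every library, 201 in D6_siNT alone and 966 in both. With the stronger 50% of the peaks, 405 were gained, 300 lost, 121 open in every library, 73 in D6_siH3.3 alone, 78 in D6_siNT alone and 268 in both, with 189 in the fibroblast and 15 in the transient pattern. With equal numbers of peaks, 248 were lost, 161 open in every library and 133 in the fibroblast pattern, and with 1 pileup floor 303 were lost and 140 had the fibroblast pattern. Where the peak had to cover the TSS, 411 were gained, 275 lost, 145 open in every library, 97 in D6_siH3.3 alone, 308 in both and 172 in the fibroblast pattern. The alternatives to the patterns were chosen after seeing the data. The median log2 ratio of D6_siH3.3 to D6_siNT, 0.11, was 0.05 when centred on all promoters and 0.05 from fold enrichment. The cause was not tested. No paired analysis was possible because every condition had 1 library. The lowest callable pileup of 7 to 11 tags limits which low promoters could be seen.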
